A study of Mus musculus with 4 samples.

Results

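Polycomb repressors were examined in natural killer (NK) cells of mice that lack a form of the transcription factor GABP. The group holds 9 genes: 4 chromobox genes of the Polycomb type (Cbx2, Cbx6, Cbx7 and Cbx8), the ring-finger gene Bmi1, and the core of Polycomb repressive complex 2 (Ezh1, Ezh2, Suz12 and Eed). Members were found by symbol in the deposited gene tables, where each symbol had 1 row, and make up 9 of 37310 genes. The group was proposed with the differences between the genotypes already known, so for the 9 genes those differences are a description and support no test.

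The cells came from bone marrow of C57BL/6 animals, 6 to 8 weeks old, by flow sorting on NK1.1 and CD49b with CD3e-bearing cells left out. Each of the 2 groups has 2 biological replicates. The dKO mice carry the genotype Gabpb1l-/-Gabpb2-/-, so they lack the long form of Gabpb1 and also Gabpb2, and without both the tetramer of GABP alpha and beta chains is missing. The Ctrl mice are littermates, and their alleles are not stated in the labels. Both null alleles are named without a promoter or a Cre, so other cells of the animals may lack the tetramer too.

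Polycomb proteins keep genes silent through chemical marks on histones. Polycomb repressive complex 2 (PRC2) puts methyl groups on lysine 27 of histone H3, with Ezh1 or Ezh2 as the enzyme, Suz12 as the scaffold and Eed as the subunit that reads the finished mark. In canonical Polycomb repressive complex 1 (PRC1) a CBX protein binds that mark through its chromodomain, and a ring-finger protein such as Bmi1 helps to place ubiquitin on histone H2A. In mice, loss of Ezh2 from blood precursors enlarges the NK lineage.

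Cbx7 was the member that differed most between the genotypes, at 2.31-fold the Ctrl level in dKO cells, while its paralogs Cbx2, Cbx6 and Cbx8 had log2 fold changes between -0.40 and -0.05. The 4 PRC2 genes had log2 fold changes between -0.28 and 0.19. Because GABP binds DNA through its alpha chain at sites with the letters GGAA, the promoter of Cbx7 is shown beside that of its neighbour and paralog Cbx6. RefSeq promoters on GRCm38.p6 run from 250 bases before to 50 bases after the start and were matched for 8 of the 9 members. Both are 5′ to 3′ on the minus strand, at chr15:79932597-79932896 for Cbx7 and chr15:79834284-79834583 for Cbx6. The RefSeq start of Cbx7 lies inside the longer gene span of the GENCODE annotation, whose 5′ end is farther upstream and is not shown. Capitals mark GGAA or its reverse complement TTCC.
Cbx7: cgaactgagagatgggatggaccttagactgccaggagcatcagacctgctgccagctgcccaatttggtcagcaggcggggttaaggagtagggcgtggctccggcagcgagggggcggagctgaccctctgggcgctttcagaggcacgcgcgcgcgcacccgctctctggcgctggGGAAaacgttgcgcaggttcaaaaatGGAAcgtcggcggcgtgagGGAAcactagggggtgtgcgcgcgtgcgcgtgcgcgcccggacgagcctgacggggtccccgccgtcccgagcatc
Cbx6: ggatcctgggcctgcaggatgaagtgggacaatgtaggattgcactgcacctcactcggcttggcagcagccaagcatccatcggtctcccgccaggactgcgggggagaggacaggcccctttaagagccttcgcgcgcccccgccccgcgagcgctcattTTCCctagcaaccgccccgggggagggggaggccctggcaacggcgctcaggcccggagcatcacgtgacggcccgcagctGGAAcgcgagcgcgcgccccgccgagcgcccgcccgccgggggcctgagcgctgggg

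The Cbx7 promoter held 3 GGAA runs, which begin 71, 45 and 26 bases before the start, all on the strand of the gene. The Cbx6 promoter held 2, and the 8 members ranged from 2 to 4, against a median of 3 over 32851 promoters. GGAA on either strand occurs in 96.0% of those promoters, so its presence separates no member from other genes. The longer run CCGGAAG, which contains GGAA and was searched on both strands, was in 0 of the 8 member promoters and in 8.86% of all promoters. These are letter matches in a short window, and no binding was measured.

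Gene counts per library were between 30233870 and 31469644 in dKO and between 33299226 and 34724516 in Ctrl. In dKO cells Gabpb2 had 85 and 86 counts, against 1244 and 1009 in Ctrl cells (edgeR adjusted p = 0.00126 for a log2 fold change of -3.61, SE 0.26). Gabpb1 had 2609 and 2400 counts in dKO and 1945 and 1727 in Ctrl, and counts over the whole gene do not check the allele of its long form. Xist, the RNA made from an inactive X chromosome, had 2 and 9 counts in dKO and 6066 and 6430 in Ctrl, so genotype and sex cannot be told apart here. The 10 NK markers summed to 13562 and 13538 CPM, counts scaled to library size, in dKO and 16568 and 16796 CPM in Ctrl, with at least 10 counts for every marker in every library. Markers of T cells summed to 46.9 and 75.9 CPM in dKO, against 213 and 222 CPM in Ctrl. For B lineage, neutrophil and myeloid precursor, monocyte, erythroid, basophil and progenitor markers the sums overlapped between the groups, but some single markers did not. In both dKO libraries 3 of 9 B lineage markers (Pax5, Vpreb1 and Igll1), 3 of 10 neutrophil and myeloid precursor markers (Mpo, Elane and Prtn3) and the monocyte marker Ly6c2 were below both Ctrl libraries. These markers were picked out after their values were seen, and 19.9% of all tested genes were below in this sense. Among basophil and progenitor markers, Mcpt8 and Flt3 were above and Meis1 was below. The neutrophil markers S100a8, S100a9, Camp and Mmp8 were among those that overlapped. Ly6c2 was at 104 and 187 CPM in dKO and 347 and 349 CPM in Ctrl, and Mpo at 59.7 and 55.5 CPM in dKO and 348 and 104 CPM in Ctrl. All 9 B lineage markers had a log2 fold change under 0. With edgeR the B lineage, neutrophil and monocyte lists had no call, while 3, 3 and 1 of their markers had an unadjusted p under 0.05. DESeq2 called 1 in each of these 3 lists, and limma-voom called 1 monocyte marker. Of 8 T cell markers edgeR called 2 lower (Cd3e and Trac), DESeq2 called 6 and limma-voom 4. Of 10 NK markers edgeR called 0, DESeq2 1 and limma-voom 0. An unadjusted p under 0.05 was reached by 10.6% of all tested genes. Of 20 genes of cycling cells, edgeR called 1 lower (Tyms) and 0 higher in dKO, and limma-voom called 1. DESeq2 called 10, among them Pcna, which was higher in dKO. With edgeR 15 of the 20 had an unadjusted p under 0.05. In 19 of the 20 the log2 fold change was negative, and their sums were 1126 and 1489 CPM in dKO and 2649 and 1846 CPM in Ctrl. In bulk RNA, fewer cells of a type and less RNA per cell cannot be told apart.

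Cbx7, a CBX protein of canonical PRC1 in many adult cell types, had 4071 and 3099 counts in dKO cells and 1676 and 1667 counts in Ctrl cells. Scaled for library size this was 127 and 103 CPM in dKO, against 49.2 and 50.2 CPM in Ctrl. Both dKO libraries lay above both Ctrl libraries, which was so for 21.7% of all tested genes. The dKO libraries differed more from each other than the Ctrl libraries did. The means were 115 ± 17.1 CPM in dKO and 49.7 ± 0.712 CPM in Ctrl (SD, n = 2 each), a log2 fold change of 1.20 (SE 0.18). Of the 13904 tested genes, 640 (4.6%) had a log2 fold change at least as high. By the threshold applied to all genes, an edgeR adjusted p under 0.05, 1 member (Cbx7) counts as called higher and 0 as called lower. The members were chosen on these values, so the count is no test of them. Of all tested genes 0.316% were called higher, 0.295% lower and 0.611% in either direction, and 6.25% had a log2 fold change above 1. Both dKO libraries lay below both Ctrl libraries in 19.9% of all tested genes. The same held for the summed NK and T cell markers, the summed genes of cycling cells, Ly6c2, Mpo, Elane and Xist. Their part in the Cbx7 values was not tested, and sex cannot be told apart from genotype. The log2 fold change was 1.04 to 1.35 over 13 alternatives. The count of members past the threshold was 0 without dKO replicate 1 (log2 fold change 1.04) and without Ctrl replicate 1 (1.19). RSEM, which assigns each fragment by an estimate over transcripts, gave 1969 and 1522 expected counts in dKO and 786 and 778 in Ctrl. The mean transcript length that RSEM assigned to Cbx7, over 6 transcripts, was 2265 and 2178 bases in dKO and 2216 and 2425 bases in Ctrl. Those lengths overlap, so this summary shows no separation of the genotypes by transcript length.

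On GRCm38 Cbx7 lies on chromosome 15 from 79915807 to 79971119 on the minus strand, and its 3′ end overlaps that of Apobec3, on the plus strand, by 100 bases. The build of the counts is mm9 and no strand setting is stated, so reads in such an overlap are uncertain. Apobec3, an antiviral cytidine deaminase, had 33869 and 30660 counts in dKO and 34567 and 36610 counts in Ctrl, with overlapping CPM (log2 fold change -0.03, SE 0.14). Within 200 kb on either side of Cbx7, 11 other genes were tested and 0 were called with edgeR, with log2 fold changes from -0.34 to 1.04 and a median of 0.20. The nearest on the other side, Pdgfb, a growth factor gene 24.8 kb away, was at 67.9 and 73.5 CPM in dKO and 74.6 and 79.9 CPM in Ctrl. Dnalc4, a dynein light chain gene, was at 20.01 and 18.7 CPM in dKO and 6.70 and 12.6 CPM in Ctrl (log2 fold change 1.01, SE 0.33, edgeR adjusted p = 0.315). Neighbours were chosen by position after the Cbx7 values had been seen. Over all tested genes 0.611% were called with edgeR and the median log2 fold change was 0.01. With so low a share, 0 calls among 11 neighbours does not set them apart from other genes.

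**Figure D1:**
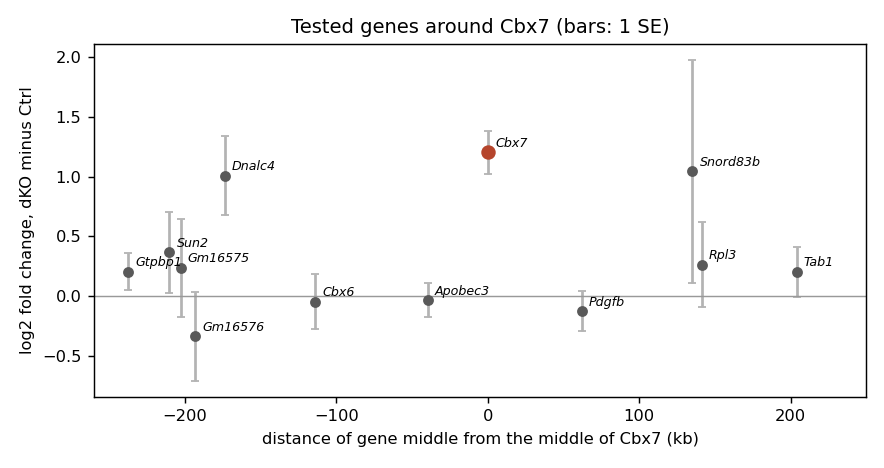
Log2 fold changes (dKO minus Ctrl, with bars of 1 SE) of the tested genes within 200 kb of Cbx7, against the distance of each gene's middle from that of Cbx7 in kb. Cbx7 (red) is at 1.20, and Cbx6, Apobec3 and Pdgfb, the neighbours drawn closest to it, lie between -0.13 and -0.03.

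Cbx2, a CBX protein known for compacting chromatin, had the largest difference in the other direction among the members. It had 378 and 259 counts in dKO and 488 and 418 in Ctrl, or 11.8 and 8.57 CPM in dKO and 14.3 and 12.6 CPM in Ctrl. Both dKO libraries were below both Ctrl libraries, with the lowest value in dKO 2 (log2 fold change -0.40, SE 0.28). Without dKO replicate 2 the difference was -0.20, and without dKO replicate 1 it was -0.65. Cbx8, another chromodomain subunit, was at 14.0 and 16.1 CPM in dKO and 15.9 and 16.1 CPM in Ctrl, and the groups overlapped (log2 fold change -0.09, SE 0.24, and 0.0088 without dKO replicate 1). Cbx6, the least studied of the family, was at 16.6 and 18.8 CPM in dKO and 17.6 and 19.0 CPM in Ctrl, again with overlap (-0.05, SE 0.23). Without dKO replicate 1 the difference for Cbx6 was 0.037, so its direction is not settled. Cbx6 shares its locus with the readthrough gene Npcd, and its counts were 1.54 and 1.76 times the RSEM estimate in dKO and 1.60 and 1.63 times in Ctrl. The median of that ratio over genes was 2.05 to 2.07 in the 4 libraries, so Cbx6 was low against it in both groups, and the reason was not tested. Npcd itself had 0 counts in each library.

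Per length, the 4 CBX members summed to 122 and 94.2 TPM, a length-scaled level, in dKO and to 54.6 and 54.9 TPM in Ctrl. Cbx7 supplied 83.0% and 81.2% of that sum in dKO, against 64.2% and 62.0% in Ctrl. Shares of Cbx2 were 4.49% and 3.65% in dKO and 10.8% and 10.05% in Ctrl. The TPM of Cbx6 and Cbx8 themselves were 6.55 to 7.85 in dKO and 6.72 to 7.66 in Ctrl. Their lower shares in dKO thus go with a larger sum. Cbx2 itself was at 5.46 and 3.44 TPM in dKO and 5.91 and 5.51 TPM in Ctrl. Its lower share goes with a lower level as well as a larger sum. Computed from the whole-number counts per kb instead, the Cbx7 share was 84.6% and 82.3% in dKO and 67.1% and 65.1% in Ctrl.

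**Figure D2:**
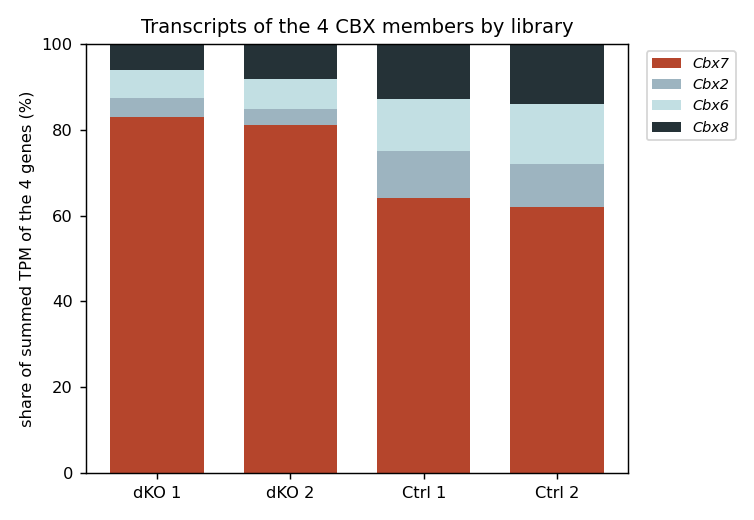
Share of the summed TPM of the 4 CBX members, in percent, that each gene supplied in each library, with 1 bar for each library. Cbx7 takes 81.2% to 83.0% in the dKO bars and 62.0% to 64.2% in the Ctrl bars.

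Bmi1, the ring-finger partner of the CBX proteins in canonical PRC1, had 596 and 586 counts in dKO and 614 and 474 in Ctrl. Its CPM values were 18.5 and 19.4 in dKO and 18.03 and 14.3 in Ctrl. Both dKO values were above both Ctrl values, though dKO 1 lay close to Ctrl 1 (log2 fold change 0.23, SE 0.24). With Ctrl replicate 2 left out the difference was 0.07. Commd3, which ends shortly before Bmi1 on chromosome 2, was at 28.9 and 40.1 CPM in dKO and 37.1 and 38.1 CPM in Ctrl.

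Ezh1, the PRC2 enzyme that is also found in cells that do not divide, was at 174 and 171 CPM in dKO and 142 and 193 CPM in Ctrl. The dKO values lay between the Ctrl values (log2 fold change 0.04, SE 0.18), and the sign turned to -0.17 without Ctrl replicate 1. Ezh2, the PRC2 enzyme typical of dividing cells, had 483 and 505 counts in dKO and 716 and 581 in Ctrl. That is 15.03 and 16.7 CPM in dKO, against 21.0 and 17.5 CPM in Ctrl, with no overlap but a narrow gap between dKO 2 and Ctrl 2 (log2 fold change -0.28, SE 0.24). The same order of libraries appeared in the summed genes of cycling cells, lowest in dKO 1 and highest in Ctrl 1, and the part of cycling cells in the Ezh2 values was not tested. The proliferation marker Mki67 was at 47.6 and 67.4 CPM in dKO and 104 and 95.6 CPM in Ctrl (log2 fold change -0.80, SE 0.21, edgeR adjusted p = 0.198). DESeq2 called Mki67 (adjusted p = 0.0230), and over the alternatives its adjusted p was 0.00426 to 0.586. For Top2a, a mitotic topoisomerase, it was -0.91 (SE 0.34, edgeR adjusted p = 0.396), and without dKO replicate 2 it was -1.53 and called (adjusted p = 0.0407). Pcna, the replication clamp, had the opposite sign, at 25.3 and 41.6 CPM in dKO and 16.5 and 11.7 CPM in Ctrl (1.25, SE 0.30, edgeR adjusted p = 0.166). DESeq2 called Pcna (adjusted p = 0.00586), but with RSEM counts its log2 fold change was 0.35 (adjusted p = 0.832). Ezh1 exceeded Ezh2 per length in every library, by 8.77 and 7.52 times in dKO TPM and by 5.24 and 8.17 times in Ctrl TPM.

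Suz12, the scaffold of PRC2, was at 68.2 and 69.3 CPM in dKO and 59.0 and 61.6 CPM in Ctrl. The replicates were close together and the groups apart, though the difference was small (log2 fold change 0.19, SE 0.17). Eed was at 101 and 77.6 CPM in dKO and 86.5 and 88.5 CPM in Ctrl. Its dKO libraries enclosed the Ctrl libraries (log2 fold change 0.03, SE 0.18), and the sign turned to -0.17 without dKO replicate 1.

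**Figure D3:**
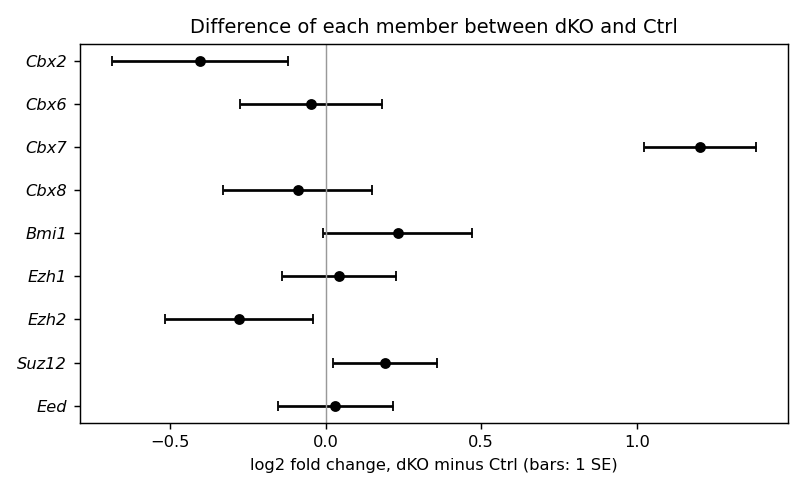
Log2 fold change, dKO minus Ctrl, of each of the 9 members, with bars of 1 SE from edgeR. Cbx7 stands at 1.20, and the other 8 members lie between -0.40 and 0.23.

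Across the 9 members 3 had both dKO libraries above both Ctrl libraries (Cbx7, Bmi1 and Suz12), 2 had them below (Cbx2 and Ezh2), and 4 overlapped. Of all tested genes 21.7% were above and 19.9% below in this sense; together this is 41.6%. All 9 members passed the filter on low counts. Their median log2 fold change was 0.03, and the median over all tested genes was 0.01.

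Levels of different genes are compared per length, in TPM. In dKO cells Ezh1 (95.9 ± 12.7 TPM), Cbx7 (88.7 ± 17.2 TPM) and Eed (68.8 ± 17.5 TPM) came first (SD, n = 2). The replicates of Cbx7 overlapped those of Ezh1 and of Eed, while both Ezh1 values (105 and 86.9 TPM) were above both Eed values (81.1 and 56.4 TPM). Suz12 (26.2 ± 0.304 TPM) followed, then Ezh2 (11.8 ± 0.283 TPM), Bmi1 (10.9 ± 0.962 TPM), Cbx8 (7.57 ± 0.233 TPM), Cbx6 (7.20 ± 0.919 TPM) and Cbx2 (4.45 ± 1.43 TPM). Both Ezh2 values (11.96 and 11.56 TPM) were narrowly above both Bmi1 values (11.54 and 10.18 TPM), while the replicates of Cbx8 and Cbx6 overlapped. In Ctrl cells the order was Ezh1 (93.9 ± 21.5 TPM), Eed (67.6 ± 4.58 TPM), Cbx7 (34.5 ± 0.714 TPM), Suz12 (22.5 ± 1.61 TPM), Ezh2 (14.2 ± 1.17 TPM), Bmi1 (8.79 ± 0.841 TPM), Cbx8 (7.30 ± 0.495 TPM), Cbx6 (7.19 ± 0.665 TPM) and Cbx2 (5.71 ± 0.283 TPM). The orders differ by the exchange of Cbx7 and Eed, and the other members kept their rank in this comparison of means.

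**Figure D4:**
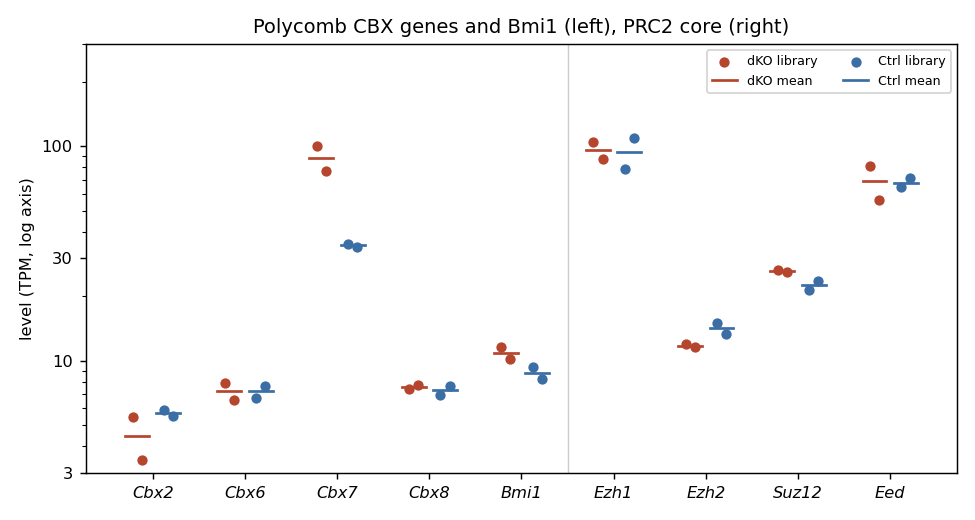
TPM of each member on a log axis, with points for libraries and lines for group means, dKO (red) left of Ctrl (blue). The Cbx7 points are at 101 and 76.5 TPM in dKO and at 35.04 and 34.0 TPM in Ctrl.

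Another 52 Polycomb genes cover other subunits of PRC1, the accessory subunits of PRC2 and the enzymes that remove both marks, and 48 of them were tested. With edgeR, 1 was called higher (Uty) and 0 lower, 8 had an unadjusted p under 0.05, and 25 had a positive log2 fold change. An unadjusted p under 0.05 was also reached by 10.6% of all tested genes. DESeq2, which called 2.96% of the genes it tested, called 3 of these 48 (Uty, Fbrsl1 and Kdm6a). Limma-voom, which called 123 of 13904 genes, called 2 (Uty and Fbrsl1). Their median log2 fold change was 0.05.

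Among catalytic subunits of PRC1, Rnf2, the main ubiquitin ligase, was at 98.6 and 109 CPM in dKO and 92.7 and 99.7 CPM in Ctrl (log2 fold change 0.11, SE 0.16, edgeR adjusted p = 0.890). Its paralog Ring1 was weakly detected, with 72 and 58 counts in dKO and 12 and 22 counts in Ctrl, and its groups did not overlap in counts (2.03, SE 0.69, edgeR adjusted p = 0.336). In TPM they did overlap, at 2.19 and 1.69 in dKO and 0.30 and 2.24 in Ctrl. With RSEM counts the log2 fold change of Ring1 was 2.05 (edgeR adjusted p = 0.323). Of 5 ring-finger relatives of Bmi1, 4 had both dKO libraries above both Ctrl libraries in CPM, and 1 (Pcgf5) had them below. Over all tested genes these shares were 21.7% and 19.9%. None of the 5 was called by edgeR, DESeq2 or limma-voom. In TPM the groups overlapped for Pcgf1, at 15.46 and 10.52 in dKO and 11.2 and 13.12 in Ctrl. Pcgf6, a subunit of a variant PRC1, was at 23.1 and 18.6 CPM in dKO and 13.6 and 7.20 CPM in Ctrl (1.003, SE 0.34, edgeR adjusted p = 0.329). Pcgf2, which can take the place of Bmi1, had 1.21 (SE 0.72) and Pcgf3 0.44 (SE 0.27), with adjusted p of 0.635 and 0.639. Without the count filter edgeR did call Pcgf6 (adjusted p = 0.0301). Of 8 tested PHC and SAM-domain genes, Scmh1 (0.32, SE 0.18), Phc1 (0.32, SE 0.32) and Scml4 (-0.15, SE 0.16) had the smallest p, and their adjusted p lay between 0.619 and 0.817.

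Variant PRC1, which works without CBX proteins, included a gene close to the threshold. Fbrsl1, a subunit related to Auts2, had 385 and 333 counts in dKO and 80 and 113 in Ctrl, or 12.0 and 11.0 CPM in dKO and 2.35 and 3.40 CPM in Ctrl. Every dKO value was above every Ctrl value (log2 fold change 2.00, SE 0.34, edgeR adjusted p = 0.0524, just outside the threshold). Over the alternatives Fbrsl1 was called in 7, among them DESeq2 (adjusted p = 7.65e-05) and limma-voom (0.0419). Yaf2, which joins the ring-finger ligase in variant PRC1, had 0.53 (SE 0.19, edgeR adjusted p = 0.366), and Mga, a DNA-binding subunit, had -0.57 (SE 0.24, adjusted p = 0.460).

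Of 9 tested accessory PRC2 genes, 6 were below 0 on the log2 scale and 0 were called with edgeR, DESeq2 or limma-voom, with 1 at an unadjusted p under 0.05. That gene, Phf1, guides PRC2 to DNA and was at 209 and 140 CPM in dKO and 97.8 and 127 CPM in Ctrl (0.63, SE 0.23, edgeR adjusted p = 0.377). Rbbp7, a histone-binding subunit, had -0.26 (SE 0.16, adjusted p = 0.639), and Phf19, a paralog of Phf1, had -0.47 (SE 0.34, adjusted p = 0.707). Without the count filter edgeR did call Phf1 (adjusted p = 0.0334). In the complex that removes ubiquitin from histone H2A, Foxk1 (-0.70, SE 0.31), Hcfc1 (-0.27, SE 0.17) and Mbd5 (0.35, SE 0.26) had the smallest p of 10 tested genes, with edgeR adjusted p from 0.493 to 0.723.

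Kdm6a and Kdm6b are demethylases of histone H3 lysine 27 and oppose PRC2. Uty, the Y-linked relative of Kdm6a, was listed with them, and no enzyme activity was measured. Uty, on the Y chromosome, had 1111 and 1032 counts in dKO and 0 in both Ctrl libraries, at least 385-fold higher than a floor of 3 counts per Ctrl library (edgeR adjusted p = 0.000183). Kdm6a, its copy on the X chromosome and known to escape X inactivation, was at 77.1 and 65.8 CPM in dKO and 112 and 124 CPM in Ctrl (log2 fold change -0.73, SE 0.17, adjusted p = 0.151). DESeq2 called it (adjusted p = 0.0170), and its adjusted p over the alternatives included 0.0104 without the count filter. Both genes separate the same libraries as Xist, Uty in the opposite direction and Kdm6a in the same one. Their difference cannot be told apart from that of sex. Kdm6b, which lies on an autosome, was at 22.3 and 15.7 CPM in dKO and 17.9 and 14.5 CPM in Ctrl (0.23, SE 0.27, adjusted p = 0.846).

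**Figure D5:**
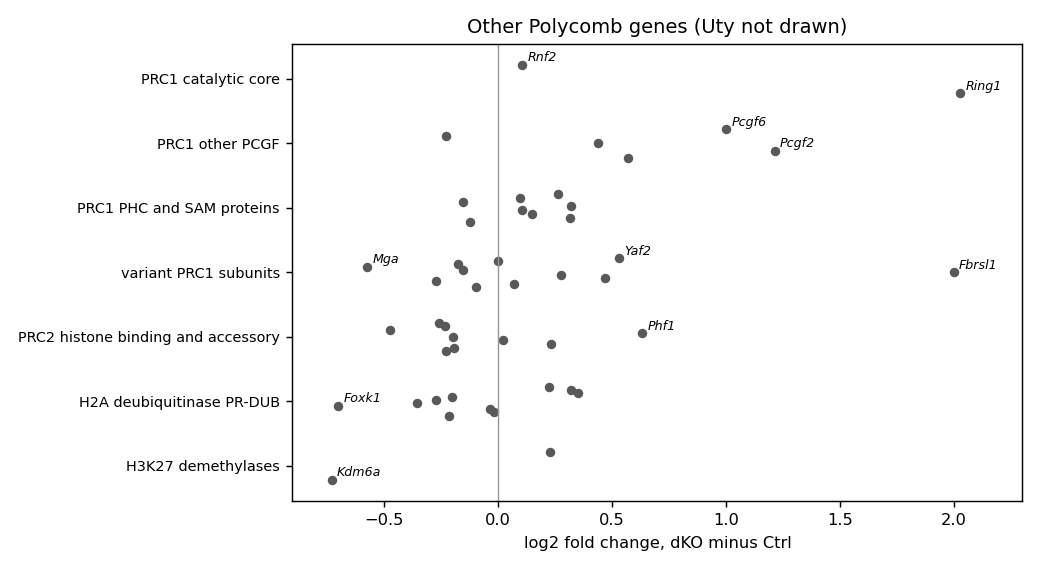
Log2 fold changes, dKO minus Ctrl, of 47 tested Polycomb genes outside the 9 members, by function, with Uty left out because it had 0 counts in Ctrl. Ring1 (2.03) and Fbrsl1 (2.00) lie farthest to the right and Kdm6a (-0.73) farthest to the left.

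The HP1 chromobox proteins have the same kind of domain as the Polycomb CBX proteins but read methylation of lysine 9. Cbx5, or HP1 alpha, was at 45.8 and 47.5 CPM in dKO and 85.9 and 58.8 CPM in Ctrl (log2 fold change -0.63, SE 0.22, edgeR adjusted p = 0.349). Cbx1 had 0.10 (SE 0.22) and Cbx3 -0.16 (SE 0.22), with adjusted p of 0.928 and 0.875. None of the 3 was called by edgeR, DESeq2 or limma-voom, and 1 had an unadjusted p under 0.05.

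Loci that Polycomb is known to keep silent were read from a list of 62 genes, of which 61 were found and 34 had 0 counts in all libraries. At least 10 counts were reached by 8 and 6 of them in dKO and by 5 and 6 in Ctrl. Over all genes, 19450 and 19220 had any counts in dKO, against 15921 and 18206 in Ctrl. The part of that difference in the low counts of these loci was not tested. Only 6 of the listed loci passed the filter. Of these, 0 were called by edgeR, DESeq2 or limma-voom, and 1 had an unadjusted p under 0.05. Cdkn2a, the cell cycle inhibitor locus best known as a target of Cbx7 and Bmi1, had 0 counts in each library, which allows up to 3 counts, or 0.0881 to 0.0993 CPM. Its neighbour Cdkn2b had 5 and 0 counts in dKO and 10 in each Ctrl library. Cdkn1c, an imprinted inhibitor gene, had 12 and 18 counts in dKO and 1 and 0 in Ctrl. It passed the filter and was the 1 gene with an unadjusted p under 0.05, but was not called (edgeR adjusted p = 0.341). Of the homeobox genes, Hoxb4 had 120 and 106 counts in dKO and 128 and 181 in Ctrl, Hoxa7 had 43 and 18 in dKO and 32 and 33 in Ctrl, and Hoxa9 had 8 and 17 in dKO and 15 and 39 in Ctrl. All 3 had an edgeR adjusted p of at least 0.811.

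The genes with a profile most like that of Cbx7 were taken from 9363 other tested genes averaging 5 CPM or more, by the Euclidean distance of log2 CPM over the 4 libraries, each centred on its mean. They were Phf20l1 (distance 0.155), Rnf145 (0.159), Cdk16 (0.165), Lonp1 (0.195) and Socs5 (0.217). Phf20l1, a chromatin protein with a Tudor domain, was at 98.3 and 87.8 CPM in dKO and 40.2 and 45.1 CPM in Ctrl. With 4 libraries in 2 groups such a distance mainly picks genes that differ between the groups by the same amount, and these were chosen for it.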

How the data were processed

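RNA of sorted NK cells was measured in 2 dKO and 2 Ctrl libraries made by the Smart-seq2 protocol, per the labels. The build is mm9, and the tools are HTSeq 0.6.1 and RSEM 1.3.0 with TopHat2 2.1.1, after Trimmomatic 0.36 and FastQC 0.11.5, and DESeq2 1.32.0, per the submitters' processing notes. Their parameters, the annotation and the strand setting were not stated. Deposited files hold raw counts for each gene, and RSEM tables with expected counts, TPM and FPKM, per the file headers. FPKM entered no result. Rows that name no gene were left out: reads outside genes were 23.8% and 24.3% of the reads in dKO and 18.1% and 21.5% in Ctrl. Counts were about 2.05 to 2.07 times the RSEM estimate, and the reason was not tested.

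Counts were fitted with edgeR 4.0.16 in R 4.3.3 (TMM, expression filter with a minimum count of 10, robust quasi-likelihood F test, Benjamini-Hochberg over 13904 genes, threshold 0.05). Each SE was derived from the log2 fold change and its F statistic. CPM use TMM library sizes. The fit was also run on counts simulated from its own estimates of spread, which does not check the calls made here. The replicates are biological per the series design. The members and all lists were chosen with earlier results of these data known. Of the silenced loci 3 cell cycle inhibitors and the 3 most abundant tested genes were named. Other Polycomb genes were named if called, by the 3 smallest p of each list, or by name (Ring1, Rnf2, Kdm6a, Kdm6b and Uty). A further gene under this rule is not reported here. Alternatives were RLE scaling, no scaling factor, no filter, a stricter filter (at least 50 counts in 2 libraries), DESeq2 1.42.0, limma-voom (limma 3.58.1), a fit that is not robust, RSEM counts rounded to whole numbers, a replicate block and each library left out.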

Additional observations from a re-analysis of the deposited data

How the results depend on the processing

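The number of genes called, 85 with edgeR as described, was 559 without the count filter, 148 with the stricter filter and 405 with DESeq2. With each library left out in turn it was 73 to 187, the highest without Ctrl replicate 2. Of the other Polycomb genes 1 was called, against 5 without the filter, 3 with DESeq2, 2 with the stricter filter, with no scaling factor, with RSEM counts and with limma-voom, and 1 to 2 with a library left out. Members called numbered 0 to 1 with a library left out and 1 under the other alternatives. Among the members, the sign turned for Cbx6 without dKO replicate 1 (0.037) and without Ctrl replicate 2 (0.0088), Cbx8 (0.0088) and Eed (-0.17) without dKO replicate 1, and Ezh1 without Ctrl replicate 1 (-0.17). Among other named genes it turned for Kdm6b without dKO replicate 1 (-0.046, range to 0.46) and Cbx1 without Ctrl replicate 2 (-0.14, range to 0.39). Hoxa7, at 0.00, turned to -0.0098 with RLE scaling, -0.0090 without the filter, -0.011 with DESeq2, -0.10 with the replicate block, -0.092 with limma-voom, and was -0.70 to 0.46 with a library left out. The cause was not tested. Leaving out a library leaves 1 in its group, which is assumed to vary like the other group. The replicate numbers share only a label: deviations of same-numbered libraries correlated at -0.05 over 13904 genes, and with the replicate block 100 genes were called. No alternative moved the median log2 fold change of all genes beyond 0.05. Genes with few counts, such as Ring1 and the Hox genes, limit what this depth can show.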
